A study of Mus musculus with 9 samples.

Results

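Genes of adenosine signalling and metabolism were described in the anterior cingulate cortex of mice after ketamine, after sleep deprivation and after saline. They form a list of 9 genes, namely the receptor genes Adora1, Adora2a and Adora2b, the enzyme genes Ada, Adk, Nt5e, Entpd1 and Entpd2, and the transporter gene Slc29a1. A gene was measured where a probe set carried its symbol and no other, and of several probe sets the brightest over the 9 arrays was taken. This gave 5 of the 9 genes (Ada, Adk, Nt5e, Slc29a1 and Entpd1) out of 22180 genes measured. Entpd2 was named only together with another gene on 1 probe set, and the 3 receptor genes are not analysed here.

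The tissue came from C57BL/6J mice, an inbred laboratory strain, with 3 arrays in each of 3 groups. Control mice were injected intraperitoneally with saline at ZT5 (zeitgeber time, hours after lights on). Ketamine, a blocker of NMDA-type glutamate receptors, was given by the same route at 3 mg/kg at ZT5. The sleep-deprived mice were kept awake between ZT0 and ZT12 by a slowly turning bar, with no injection named for them. Wakefulness, the bar and the lack of an injection therefore cannot be told apart in any contrast with this group. All mice were killed at ZT13, and the labels give neither age nor sex. The labels call the replicates biological without naming animals, so p-values measure the spread between these arrays.

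Adenosine is a nucleoside that leaves and enters cells and dampens neuronal activity through G protein-coupled receptors. In the forebrain its extracellular level is known to climb during waking and to fall during sleep, which has made it a standard carrier of sleep pressure, and caffeine acts by blocking its receptors. Extracellular adenosine is made from released ATP, first to AMP by ectonucleotidases such as the product of Entpd1 and then to adenosine by the product of Nt5e. It is taken up through equilibrative transporters such as the product of Slc29a1, and removed inside cells by adenosine kinase (Adk), which returns it to AMP, or by adenosine deaminase (Ada), which turns it into inosine.

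None of the 5 measured genes passed the test across all genes in any contrast. limma called 0 of 5 at an adjusted p under 0.05 in each of 3 contrasts, here always in the order ketamine minus saline, sleep deprivation minus saline, ketamine minus sleep deprivation, beside 0% of all genes in each. At an unadjusted p under 0.05 the members' counts were 0, 0 and 1 of 5, beside 4.57%, 3.52% and 9.48% of all genes. The groups did not overlap for 1, 0 and 1 of 5 members, beside 14.4%, 7.11% and 10.1% of all genes, so these counts stand near the background. The members' means were lower in the first-named group for 2, 4 and 2 of 5 genes, beside 54.6%, 53.4% and 53% of all genes. The median differences of the members were 0.05, -0.03 and 0.02 on the log2 scale, against -0.02, -0.01 and -0.01 over all genes. Each difference is one of log2(intensity + 16) and carries its SE, as fitted by limma, and the offset of 16 understates the change of dim probe sets. Intervals and half-widths given as a fold are on the same scale, so they are folds of intensity + 16. Ratios of group means are of intensity itself.

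Arrays differed in the spread of their values. The upper quartile of intensity lay between 229.1 and 241.9 on 7 arrays, but at 253.7 on sleep-deprived array 2 and 220.8 on ketamine array 3. The same arrays had the lowest and the highest median, 97.7 and 106.2. Cortical glutamatergic neuron markers (7 of 8 measured) summed to 6766 to 7491 on all arrays, and striatal markers (11 of 13 measured) to 1928 to 2411. Choroid plexus and ependymal markers (7 of 8 measured) ranged from 552 to 9485, the highest in saline array 2. Most of this range came from Ttr, at 1624, 8428 and 109.5 in saline arrays 1 to 3, with Kl at 586.6 in array 2. Without saline array 2 the members' differences from saline lay between -0.22 and 0.12, and limma called 0 of 5.

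The formation of adenosine outside the cell was represented by Entpd1 and Nt5e. Entpd1 (probe set 17359344) encodes the membrane enzyme that strips phosphates from extracellular ATP and ADP and is known from microglia and vessels. Its intensities were 237.8, 250.4 and 258.8 in saline arrays 1 to 3, 231.4, 229.6 and 218.2 after ketamine, and 252.1, 270.2 and 209.2 after sleep deprivation. Each of the 3 ketamine arrays read lower than each saline array, while the sleep-deprived arrays reached from below the lowest to above the highest of both other groups.

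Group means for Entpd1 were 249.0 ± 10.6 (SD, n = 3) after saline, 226.4 ± 7.11 after ketamine and 243.8 ± 31.4 after sleep deprivation. The ketamine mean was 0.909 of the saline mean, a difference of -0.13 ± 0.10 (limma, unadjusted p = 0.227, adjusted p = 0.870). After quantile normalization of the arrays it was -0.07. The 95% interval of the main difference ran from 0.787-fold to 1.06-fold. Sleep deprivation differed from saline by -0.03 ± 0.10, which changed sign to 0.06 without sleep-deprived array 3. Beside the ketamine value, 5 of 7 microglial markers had lower means than after saline, with a median of -0.04 and summed levels of 2123 to 2303 against 2140 to 2358 (2 of 7 and 0.02 after quantile normalization). Endothelial markers were lower in 8 of 8 genes with a median of -0.13, and their sums were 1410 to 1679 against 1577 to 1724. The part of these cells in the Entpd1 value was not tested, and in bulk tissue fewer cells of a type and less RNA per cell cannot be told apart.

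Nt5e (probe set 17520073) encodes the ecto-5'-nucleotidase that releases adenosine from AMP. It read 88.24, 94.18 and 84.19 after saline, 90.47, 93.90 and 101.8 after ketamine, and 98.52, 78.77 and 82.00 after sleep deprivation. All groups overlapped, and sleep-deprived array 1 lay above every saline array while arrays 2 and 3 lay below them. The means of 88.87 ± 5.02, 95.38 ± 5.80 and 86.43 ± 10.6 (SD, n = 3) gave 0.09 ± 0.10 for ketamine against saline and -0.04 ± 0.10 for sleep deprivation against saline. Adjusted p-values in limma were 0.884 and 0.9997. The 95% intervals ran from 0.917-fold to 1.23-fold and from 0.841-fold to 1.13-fold. The sleep deprivation value was 0.02 without sleep-deprived array 2.

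The removal of adenosine was represented by Adk and Ada. Adk (probe set 17297576), the enzyme held to set the adenosine tone of the adult brain and known mainly from astrocytes, read 365.0, 334.5 and 355.3 after saline. It read 363.0, 304.8 and 284.0 after ketamine and 300.5, 409.5 and 333.1 after sleep deprivation. The 2 extremes of the 9 arrays, ketamine array 3 and sleep-deprived array 2, were the same arrays that had the lowest and the highest upper quartile. The sleep-deprived arrays spanned the widest range, with an SD of 56.0 around a mean of 347.7, against 40.9 around 317.3 after ketamine and 15.6 around 351.6 after saline.

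Ketamine differed from saline by -0.15 ± 0.12 for Adk (limma, unadjusted p = 0.243, adjusted p = 0.870). The value was -0.08 without ketamine array 3, -0.24 without ketamine array 1 and -0.08 after quantile normalization. Sleep deprivation differed from saline by -0.03 ± 0.12, with a 95% interval of 0.821-fold to 1.18-fold. Leaving out sleep-deprived array 2 gave -0.14 and leaving out array 1 of that group gave 0.07, so its sign rested on single arrays. Between ketamine and sleep deprivation Adk was at -0.12 ± 0.12, or 0.07 without ketamine array 3 and sleep-deprived array 2.

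Astrocyte markers (7 of 7 measured) are given beside Adk. Like Adk, 7 of 7 had lower means after ketamine than after saline, with a median of -0.09, or 5 of 7 and -0.03 after quantile normalization. The smallest adjusted limma p among them was 0.870. Their median stood 0.18 below the saline mean in ketamine array 3 and 0.07 above it in sleep-deprived array 2, where Adk stood at -0.29 and 0.21. This was not particular to astrocytes. Striatal (-0.11 and 0.085), cortical (-0.025 and 0.073), interneuron (-0.2 and 0.059), microglial (-0.15 and 0.039) and endothelial medians (-0.24 and 0.14) moved the same way. Oligodendrocyte (-0.29 and -0.033) and meningeal fibroblast medians (-0.36 and -0.021) were lower in both arrays. Choroid plexus and ependymal medians went the opposite way (0.12 and -0.43). Astrocyte sums were 7445 to 8055 after saline, 6878 to 7808 after ketamine and 7119 to 8164 after sleep deprivation. The part of astrocytes in the Adk values was not tested.

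Ada (probe set 17394063), adenosine deaminase, gave the largest difference of the 5 genes but was also the dimmest of them. Its mean over the 9 arrays was 72.7, below the median intensity of every array (97.7 to 106.2). Ada read 73.62, 70.15 and 76.78 after saline, 75.49, 79.06 and 90.24 after ketamine, and 52.11, 66.64 and 70.24 after sleep deprivation. The 52.11 of sleep-deprived array 1 stood near the lower quartile of that array, 51.9. The 3 ketamine arrays lay above the 3 sleep-deprived arrays, and the saline arrays lay between these groups and overlapped both. Group means were 73.52 ± 3.32, 81.60 ± 7.70 and 62.99 ± 9.60 (SD, n = 3) in the same order. The mean after ketamine was thus 1.3 times that after sleep deprivation.

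On the log2 scale Ada differed by 0.31 ± 0.11 between ketamine and sleep deprivation (limma, unadjusted p = 0.0118, adjusted p = 0.450), which did not pass over all genes. The interval of this difference ran from 1.06-fold to 1.45-fold. It was 0.21 with an unadjusted p of 0.0702 in limma without sleep-deprived array 1, and 0.25 with 0.0529 without ketamine array 3. Against saline, ketamine was at 0.12 ± 0.11 and sleep deprivation at -0.19 ± 0.11, with limma adjusted p-values of 0.871 and 0.9997. Sleep-deprived array 1 alone stood at -0.39 from the saline mean, and the sleep deprivation value was -0.08 without it. In ketamine array 3 Ada stood at 0.25, and the ketamine value was 0.06 without that array. Both comparisons use the same saline arrays.

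Markers of 3 other kinds of cells are given beside this Ada difference, and none of them passed after adjustment in limma. These 3 were taken because, of all marker lists, their medians lay furthest from 0 in this contrast. The medians of the other lists lay between -0.118 (meningeal fibroblasts) and -0.0226 (microglia). Endothelial markers had lower means after ketamine than after sleep deprivation in 8 of 8 genes, with a median of -0.27 and sums of 1410 to 1679 against 1792 to 2033. Of these, 6 of 8 had an unadjusted limma p under 0.05, and the smallest adjusted p was 0.335. Choroid plexus and ependymal markers had higher means after ketamine in 7 of 7 genes, as Ada did, with a median of 0.19 and sums of 734 to 1063 against 552 to 1039. However, 1 of 7 had an unadjusted limma p under 0.05, and the groups overlapped for each gene. The sums followed Ttr (138.5 to 466.9 against 89.46 to 427.8), and the other markers were dim in both groups, at 45.38 to 144.5. Oligodendrocyte markers had higher means in 6 of 7 genes with a median of 0.24, but 0 of 7 had an unadjusted limma p under 0.05 and the groups overlapped for each gene. Ketamine array 2 carried that median, which was 0.01 without it, with 3 of 7 means lower. In ketamine array 3, where Ada was highest, the oligodendrocyte sum of 2811 was below every sleep-deprived array (2929 to 3644). The part of these cells in the Ada difference was not tested.

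**Figure D1:**
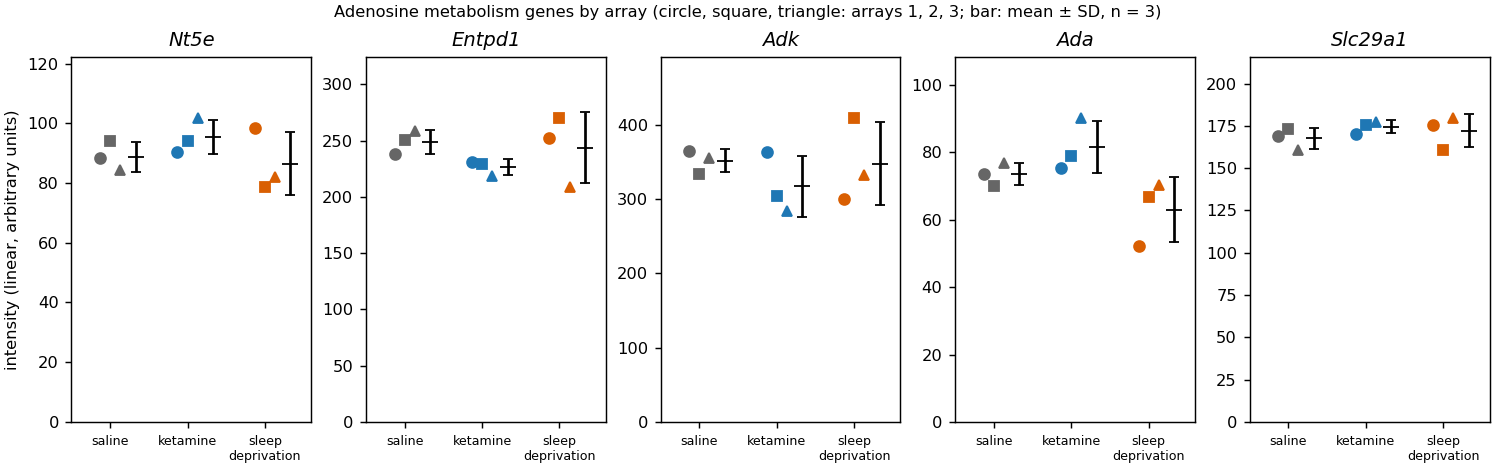
Intensity (linear scale, arbitrary units, starting at 0) of Nt5e, Entpd1, Adk, Ada and Slc29a1 on each array, with circles, squares and triangles for arrays 1, 2 and 3 of a group and a bar for the mean ± SD. Ketamine arrays lie below all saline arrays for Entpd1 (218.2 to 231.4 against 237.8 to 258.8) and above all sleep-deprived arrays for Ada (75.49 to 90.24 against 52.11 to 70.24).

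Uptake was represented by Slc29a1 (probe set 17345202), the main equilibrative nucleoside transporter of brain cells. It read 168.9, 173.2 and 161.0 after saline, 170.1, 175.6 and 177.4 after ketamine, and 175.5, 161.0 and 179.7 after sleep deprivation. The groups overlapped in all contrasts, and the highest of the 9 arrays was 1.12 times the lowest. Differences were 0.05 ± 0.09 for ketamine and 0.03 ± 0.09 for sleep deprivation against saline, with 95% intervals of 0.911-fold to 1.18-fold and 0.899-fold to 1.16-fold. A dimmer probe set of the gene (17337945) had means of 48.5 ± 2.24 after saline, 52.8 ± 5.62 after ketamine and 53.7 ± 3.63 after sleep deprivation (SD, n = 3). When the 2 probe sets were averaged, the difference between ketamine and sleep deprivation went from 0.02 to -0.0005.

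The members also differed in how far arrays of a group lay apart. The within-group SD on the log2 scale was 0.05 for Slc29a1, smaller than in all but 2.43% of genes, 0.10 for Nt5e, 0.11 for Entpd1, 0.13 for Ada and 0.17 for Adk, against a median of 0.13 over all genes. With 3 arrays per group the half-width of the 95% interval of a difference came to 1.14-fold for Slc29a1 and 1.2-fold for Adk. The intervals show which sizes of change these arrays leave compatible with the data. They do not show that the groups were equal.

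**Figure D2:**
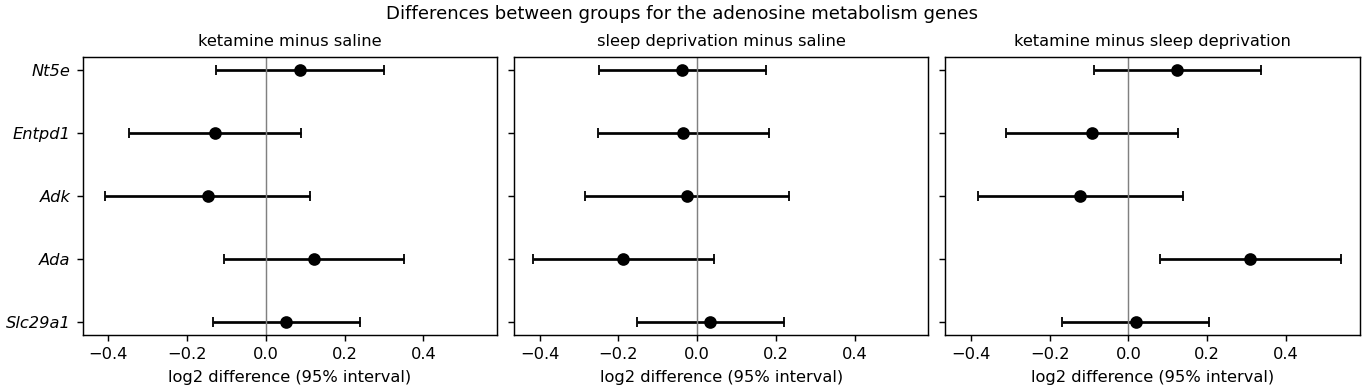
Log2 differences of the 5 genes for ketamine minus saline, sleep deprivation minus saline and ketamine minus sleep deprivation (points) with 95% intervals from the limma fit (bars). All intervals include 0 except that of Ada between ketamine and sleep deprivation (0.08 to 0.54), whose adjusted p was 0.450.

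Across the 9 arrays the members did not all run in parallel. Pearson correlations between members ran from -0.837 (Adk with Nt5e) to 0.596 (Nt5e with Slc29a1). Adk was at -0.791 with Slc29a1 and 0.526 with Entpd1, and Slc29a1 was at -0.79 with Entpd1. Ada lay between -0.463 (with Entpd1) and 0.107 (with Nt5e). Ketamine array 3 was the highest of all arrays for Ada and Nt5e and the lowest for Adk. Sleep-deprived array 2 was the highest for Adk and Entpd1 and the lowest for Nt5e. The genes most like each member over the 9 arrays were sought among genes at or above the median intensity, 11089 for the brighter members. The Pearson correlation with Adk was 0.99 for Lcmt1, 0.987 for Kti12 and 0.984 for Erp44. For Entpd1 it was 0.973 for Nhsl1, 0.97 for Ube3b and 0.966 for Gne. For Ada it was 0.953 for Scarletltr and Kcnn1 and 0.926 for Nmb. For Nt5e the values were 0.947 for Gm6583, 0.935 for Fcor and 0.905 for Mab21l4, and for Slc29a1 they were 0.972 for Krt34, 0.92 for Zfp213 and 0.914 for Ccdc116. These values describe 9 arrays that share their normalization, and the highest of so many candidates is large by selection.

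A second list held 74 further genes of adenosine and purine signalling, of which 67 were measured. limma called 0 of 67 in each contrast at an adjusted p under 0.05, with smallest adjusted p-values of 0.870, 0.9997 and 0.491 in the order given above. At an unadjusted p under 0.05 there were 2, 1 and 2 of 67 (2.99%, 1.49% and 2.99%), below the shares of all genes given above. The groups did not overlap for 10, 3 and 6 of 67 (14.9%, 4.48% and 8.96%). Means were lower in the first-named group for 43, 34 and 40 of 67, with medians of -0.03, -0.003 and -0.02. After quantile normalization 30, 34 and 31 were lower, so the excess of lower means after ketamine depended on the scaling.

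Of the receptors, Adora3 was measured. It encodes the A3 adenosine receptor, which couples to inhibitory G proteins and is known in brain mainly from microglia. It read 70.55, 63.54 and 71.67 after saline, 72.00, 80.07 and 81.08 after ketamine, and 68.14, 66.12 and 73.00 after sleep deprivation. Each ketamine array read higher than each saline array, narrowly at the closest pair, and the sleep-deprived arrays overlapped both. Ketamine and saline did not overlap for 14.4% of all genes. The Adora3 intensities are dim, below the median of every array (97.7 to 106.2). The difference was 0.15 ± 0.09 for ketamine (limma adjusted p = 0.870) and 0.01 ± 0.09 for sleep deprivation (0.9997). Beside it, 5 of 7 microglial markers had lower means after ketamine, or 2 of 7 after quantile normalization, and their part in the Adora3 value was not tested.

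Other nucleoside transporters (6 of 6 measured) had medians of 0.03 after ketamine and -0.002 after sleep deprivation against saline. Slc28a3, a concentrative transporter, was at 0.19 ± 0.12 after ketamine, with intensities of 55.16, 57.50 and 77.13 against 50.18, 53.83 and 55.74 after saline. Ketamine array 3 stood apart from the others there, and the value was 0.06 without it. Slc29a3, an equilibrative transporter of intracellular membranes, was at 0.04 ± 0.09 and 0.07 ± 0.09 after ketamine and sleep deprivation. Extracellular nucleotide-hydrolysing enzymes (7 of 10 measured) had medians of 0.05 in both contrasts with saline. Acpp, also named Acp3, which can release adenosine from AMP as Nt5e does, was at 0.13 ± 0.10 and 0.05 ± 0.10.

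Intracellular 5'-nucleotidases, which make adenosine or other nucleosides from monophosphates inside the cell, had 6 of 7 means lower after ketamine, with a median of -0.07. After quantile normalization the count was 5 of 7 and the median -0.03. Ketamine and saline arrays did not overlap for 71.4% of these 7 genes (1 higher, 4 lower), beside 14.4% of all genes. This share is given after the values were seen, and 0 of 7 passed after adjustment in limma. The gene with a higher mean in the main fit was Nt5c1b, a cytosolic AMP nucleotidase. It read 39.07, 36.64 and 35.69 after saline, 44.88, 41.48 and 52.72 after ketamine, and 41.30, 40.88 and 45.08 after sleep deprivation. Each treated array lay above each saline array. Groups did not overlap for 14.4% of all genes in the ketamine contrast with saline and 7.11% in that of sleep deprivation. Nt5c1b was itself named by its small unadjusted p in these data. Its differences from saline were 0.23 ± 0.09 after ketamine (limma, unadjusted p = 0.0304, adjusted p = 0.870) and 0.14 ± 0.09 after sleep deprivation (0.170 and 0.9997). The ketamine value was 0.16 without ketamine array 3, and its unadjusted p was 0.0714 with limma-trend. Each of these intensities lay below the lower quartile of its array (48.9 to 55.9 over the arrays).

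Nt5c3, a pyrimidine nucleotidase, read 404.1, 417.9 and 385.4 after saline and 371.6, 373.6 and 315.4 after ketamine. All ketamine arrays were below all saline arrays, at -0.18 ± 0.10 (limma adjusted p = 0.870). The value was -0.11 without ketamine array 3 and -0.11 after quantile normalization. Sleep-deprived arrays read 344.6, 398.3 and 351.4, at -0.14 ± 0.10. Nt5c1a, the other cytosolic AMP nucleotidase, read 82.60, 72.48 and 79.26 after ketamine and 83.20, 110.1 and 88.06 after sleep deprivation. These groups did not overlap, at -0.22 ± 0.10 between ketamine and sleep deprivation (limma, unadjusted p = 0.0592, adjusted p = 0.541). Without sleep-deprived array 2 the Nt5c1a difference was -0.11.

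Adenylate kinases and AMP deaminases set how much AMP is at hand. Of 6 measured genes (8 listed) 5 had lower means after ketamine, with a median of -0.05, and 2 after sleep deprivation, with a median of 0.02. Ampd2, an AMP deaminase, read 243.4, 199.9 and 203.0 after saline, 229.4, 203.4 and 180.4 after ketamine, and 239.1, 266.2 and 236.6 after sleep deprivation. Ketamine arrays lay below all sleep-deprived arrays, and saline overlapped both. The difference between these groups was -0.26 ± 0.11 (limma, unadjusted p = 0.0329, adjusted p = 0.491). The probe sets of the gene disagreed, since their average gave -0.06. Sleep deprivation was at 0.19 ± 0.11 against saline, or 0.07 with the probe sets averaged.

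Methylation cycle and purine salvage genes (9 of 10 measured) had medians of -0.04 and -0.05 after ketamine and sleep deprivation. Pnp2, a purine nucleoside phosphorylase that splits inosine, read 108.8, 117.3 and 107.1 after saline, 84.32, 96.26 and 60.63 after ketamine, and 138.3, 79.12 and 100.8 after sleep deprivation. No ketamine array reached the saline range, and sleep-deprived arrays lay on both sides of it. The ketamine difference was -0.42 ± 0.16 (limma, unadjusted p = 0.0240, adjusted p = 0.870). It was -0.26 without ketamine array 3. Its near-identical neighbour Pnp was at -0.04 ± 0.10, and signal of these paralogs may be shared between their probe sets. Ahcy, which makes adenosine from S-adenosylhomocysteine, was at 0.04 ± 0.15 and -0.05 ± 0.15.

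**Figure D3:**
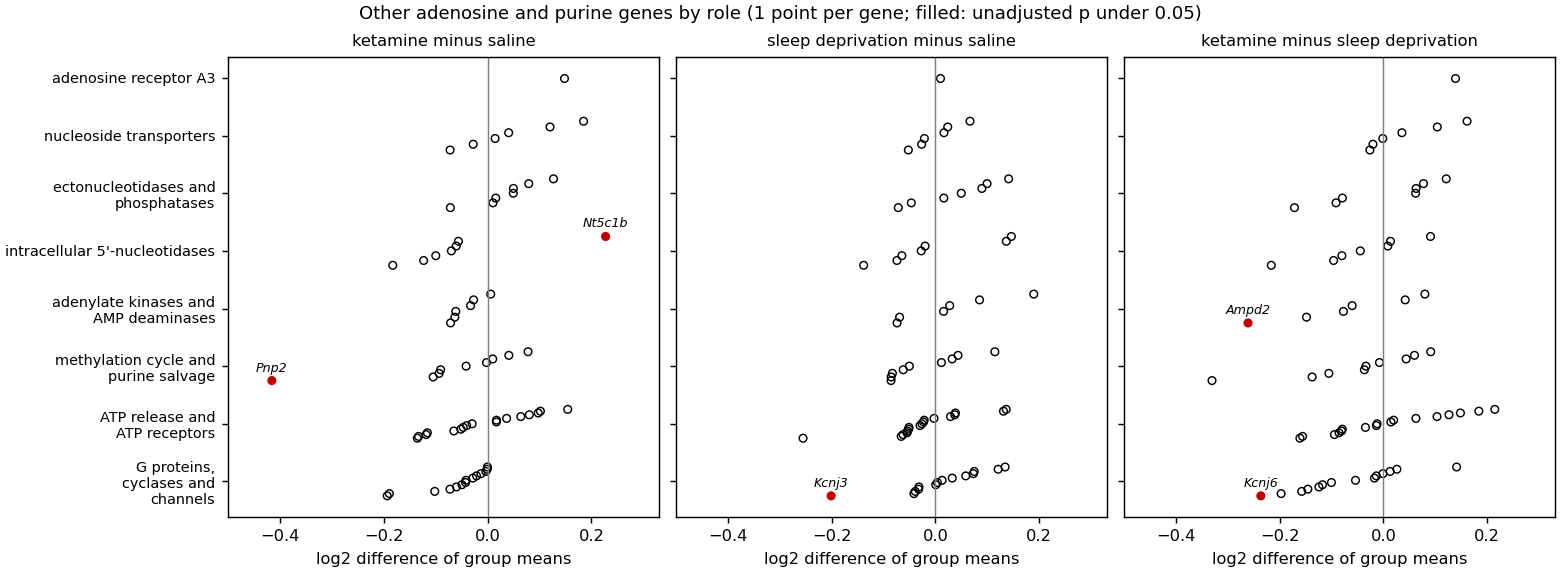
Log2 differences of group means for the 67 other adenosine and purine genes by role (1 circle per gene, filled where the unadjusted limma p was under 0.05) in the 3 contrasts. Filled circles mark Nt5c1b and Pnp2 for ketamine against saline, Kcnj3 for sleep deprivation against saline, and Ampd2 and Kcnj6 for ketamine against sleep deprivation, and 0 genes passed after adjustment.

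ATP release channels and ATP receptors (17 of 17 measured) had medians of -0.03 after ketamine and -0.03 after sleep deprivation. P2ry12, the ADP receptor of resting microglia, read 393.5, 415.9 and 472.9 after saline, 435.7, 429.4 and 379.4 after ketamine, and 322.4, 438.3 and 315.0 after sleep deprivation. Sleep-deprived arrays 1 and 3 were the lowest of all 9, while array 2 lay within the saline range. The difference from saline was -0.26 ± 0.13 (limma, unadjusted p = 0.0622, adjusted p = 0.9997). It was -0.40 without sleep-deprived array 2, the array within the saline range, so that value is larger by the choice of array. Without saline array 1 the P2ry12 difference was -0.31. P2ry12 belongs to the microglial markers as well, and of these 5 of 7 had higher means after sleep deprivation, with a median of 0.01. P2rx1, an ATP-gated channel, read 137.3, 132.4 and 157.5 after ketamine and 135.0, 103.0 and 133.9 after sleep deprivation. The groups overlapped, at 0.18 ± 0.11, and sleep-deprived array 2 stood apart. The value was 0.07 without that array and 0.12 without ketamine array 3. P2ry6, a UDP receptor, was at 0.14 ± 0.09 after sleep deprivation.

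The G proteins, adenylyl cyclases and potassium channels through which adenosine receptors act (14 of 15 measured) had lower means in 14 of 14 genes after ketamine, with a median of -0.04. This count was 6 of 14 after quantile normalization, with a median of 0.006, and 11 of 14 without ketamine array 3. After sleep deprivation 5 of 14 were lower. Kcnj3, a subunit of the potassium channel opened by A1 receptors, read 1351, 1445 and 1399 after saline and 1239, 1205 and 1198 after sleep deprivation. All sleep-deprived arrays were below all saline arrays, at -0.20 ± 0.09 (limma, unadjusted p = 0.0433, adjusted p = 0.9997). With its probe sets averaged, Kcnj3 was at -0.165 ± 0.112 (limma, unadjusted p = 0.162), so the smaller p rested on the brightest probe set. Its ketamine arrays read 1412, 1391 and 1226, with the first and second in the saline range and the third in the sleep-deprived range, at -0.06 ± 0.09 from saline.

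Kcnj6, another subunit of that channel, read 751.5, 761.4 and 679.4 after ketamine and 908.5, 922.6 and 765.3 after sleep deprivation. The saline arrays at 711.4, 828.4 and 818.7 overlapped both. The difference between ketamine and sleep deprivation was -0.24 ± 0.10 (limma, unadjusted p = 0.0408, adjusted p = 0.518), and -0.14 without sleep-deprived array 2 and ketamine array 3. Adcy8, a calcium-stimulated adenylyl cyclase, was at -0.19 ± 0.10 after ketamine and 0.004 ± 0.10 after sleep deprivation. Its ketamine arrays read 336.0, 290.8 and 256.1 against 337.5, 346.8 and 326.5 after saline, with the first inside the saline range. The ketamine value of Adcy8 was -0.10 without ketamine array 3 and -0.13 after quantile normalization.

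**Figure D4:**
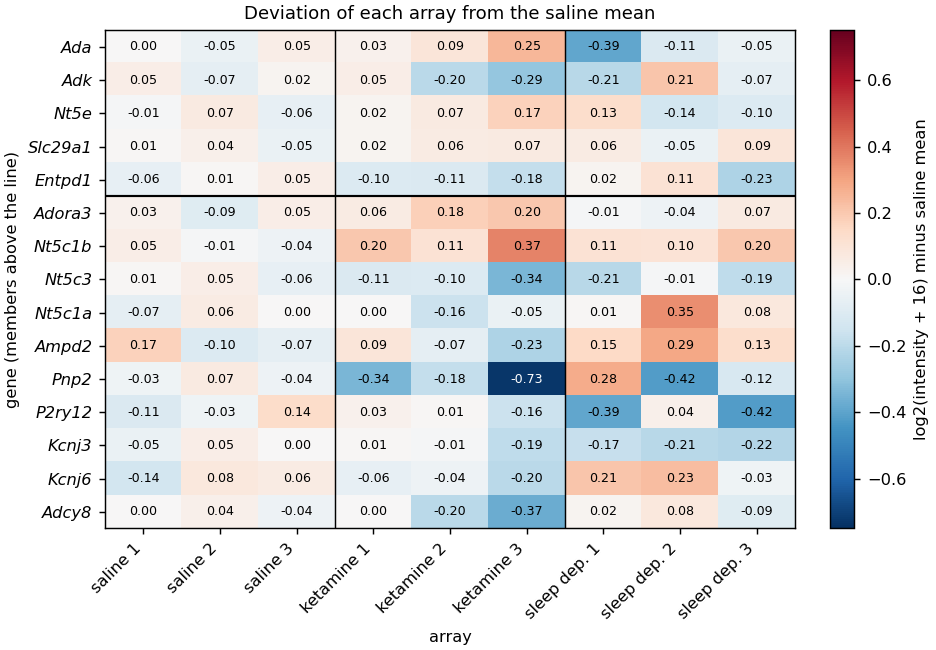
Deviation of each array from the saline mean on the log2(intensity + 16) scale for the 5 measured genes (above the line) and 10 named genes of the second list, with red above and blue below saline and the value printed in each cell. Ketamine array 3 holds the ketamine value furthest from saline for 5 of 5 members, such as Adk at -0.29 and Ada at 0.25, and sleep-deprived array 1 holds the lowest Ada value at -0.39.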

How the data were processed

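RNA of 9 arrays (3 saline, 3 ketamine, 3 sleep deprivation) was measured. The submitters' processing notes name Expression Console 1.1.1 of Affymetrix as well as PLIER 2.0, a method that summarises the probes of a probe set. The deposited values are linear intensity for 41345 probe sets, with background correction and normalization not given in the sources used here. Of these, 23521 had 1 gene symbol in the platform annotation, 1814 several and 16010 none. Of the first, 23328 were matched to RefSeq by gene identifier and took the RefSeq symbol. The brightest probe set stood for each of 22180 genes.

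From the deposited intensity, log2(intensity + 16) was computed here and tested with limma 3.58.1 in R 4.3.3 on all 9 arrays, with 6 residual degrees of freedom and Benjamini-Hochberg adjustment over all genes at 0.05. The fit was tested on simulated data. The number of arrays limits the precision, and the median SE of a difference was 0.109. The members and lists were chosen with earlier results of these data known. Named genes were the measured members, up to 3 second-list genes with the smallest unadjusted p per direction and contrast, 1 more per role, and the 3 most correlated genes per member. No pair of arrays was identical (0 pairs). Alternatives covered offsets of 1 and 64, normalization, a dim-gene filter, probe set averaging, limma-trend, array weights, 2-group fits, a replicate block and the removal of arrays. Several-gene probe sets were left out.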

Additional observations from a re-analysis of the deposited data

How the results depend on the processing

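The 5 members stayed uncalled in all 3 contrasts under 10 other settings of the processing, the removal of each of the 9 arrays, and an alternative chosen after seeing the data, in which sleep-deprived array 2 and ketamine array 3 were both left out. Ada could not be tested with the dimmest genes removed, which left 14787. The sign changed in 6 of 162 member values under other alternatives and in 5 of 135 with 1 array left out. For the named genes of the second list it changed in 0 of 194 and 0 of 162. Those genes were picked by their small unadjusted limma p in these same data, so their counts cannot be compared with those of the members. For sleep deprivation against saline, Nt5e became 0.0307 with array weights and 0.0157 with both arrays left out. For ketamine against sleep deprivation, Slc29a1 became -0.000538 with probe sets averaged and -0.0357 with both arrays left out, where Adk became 0.0691 from -0.12 and Entpd1 0.00436 from -0.09. With 1 array left out, sleep deprivation against saline ranged from -0.144 to 0.0692 for Adk, -0.121 to 0.0157 for Nt5e and -0.108 to 0.0648 for Entpd1, and Slc29a1 ranged from -0.0242 to 0.0482 for ketamine against sleep deprivation.

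Of all genes, 0 were called in each contrast, and limma had 1013 for ketamine and 781 for sleep deprivation, each against saline, and 2103 between ketamine and sleep deprivation at unadjusted p under 0.05. Weighting the arrays by quality, with the heaviest weight of 7.92 on ketamine array 2, called 1439 for ketamine against saline and 42 for ketamine against sleep deprivation. Among the former was 1 gene of the second list, P2ry14, named after its values were seen (main difference -0.14 ± 0.11). For sleep deprivation against saline, median centring called 1, limma-trend 3 and the removal of both arrays 1, and leaving out 1 array gave 0 to 4 (4 without sleep-deprived array 2). For ketamine against sleep deprivation, an offset of 64 called 14, removal of the dimmest genes 5, limma-trend 15 and the removal of both arrays 1, and leaving out 1 array gave 0 to 214 (214 without sleep-deprived array 3). The cause of these differences was not tested.

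Arrays share replicate numbers across groups, but same-numbered arrays deviated from their group means with correlations from -0.201 to 0.444, so the numbers were not read as pairs. With the replicate block 0 genes were called in each contrast, and Ada stood at 0.31 between ketamine and sleep deprivation (limma, adjusted p = 0.310). Ketamine array 1 correlated best with sleep-deprived array 2 (0.536).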
